A study of Rattus norvegicus with 13 samples.

Results

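The 9 listed unconventional myosins, the actin-based motors outside the muscle-type class II, were followed in the RNA-Seq data of the newborn rat ventricular zone (VZ). The members were taken from a list of names, *Myo1c*, *Myo1d*, *Myo1e*, *Myo5a*, *Myo6*, *Myo7a*, *Myo9a*, *Myo9b* and *Myo10*. This list was chosen with earlier results of these data known. It includes *Myo1d*, *Myo1e* and *Myo7a*, which the study had reported as lower in these pups. Rows of the deposited table were matched by gene name, and all 9 were found, with 1 row each, among 14716 rows. The samples were Long Evans male pups on postnatal day 2, 7 controls whose dams drank deionized water and 6 pups whose dams drank 3 ppm propylthiouracil (PTU), an inhibitor of thyroid hormone synthesis, during pregnancy and lactation. The labels describe the controls as euthyroid and the PTU exposed pups as hypothyroid. Each pup came from a different litter, and its posterior ventricular epithelium was cut out by laser capture on the basis of its pseudostratified appearance, pooled over sections of both hemispheres. PTU was given to the dam, so that effects through the dam and in the pup cannot be told apart. Libraries were made from rRNA-depleted total RNA with a stranded kit, and the methods describe some degradation of the RNA.

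Unconventional myosins share a motor domain that binds F-actin and hydrolyses ATP, and a neck whose IQ motifs bind calmodulin or related light chains. Their tails differ and set what they carry or bind. In epithelia and in radial glia, the progenitors whose apical endfeet line the ventricle, actin is concentrated at apical junctions, microvilli and endfeet, and motors of this family are known for membrane tension, endocytosis, organelle transport and filopodia. By tail, the members are 3 class I myosins (*Myo1c*, *Myo1d*, *Myo1e*), the cargo motors *Myo5a* and *Myo6*, *Myo7a* and *Myo10* with MyTH4-FERM tails, and *Myo9a* and *Myo9b*, whose tails hold a GTPase-activating domain.

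The values are normalized counts, that is, estimated counts of each transcript row divided by a size factor for each pup. From the step between low values, the reads behind each pup were estimated at 22293200 to 43508868 in controls and at 28412161 to 44386439 in PTU exposed pups. The 3 highest rows of the table, which carry no gene name in the table, took 32.4 to 60.1% of the total in controls and 23.9 to 57.0% in PTU exposed pups. Marker transcripts of several cell types differed in mean between the groups, none with an adjusted p of at most 0.05 in limma. All 11 choroid plexus markers found were lower in mean in PTU exposed pups, 7 of them with an unadjusted p under 0.05 in limma, and their summed level spanned 50319 to 141256 normalized counts among controls, against 23629 to 101692 with PTU. Of 10 neuron markers, 9 were higher in mean (5 with an unadjusted p under 0.05), with sums from 54985 to 78867 and from 71062 to 122226. All 8 markers of multiciliated ependymal cells that were found were lower in mean (4 with an unadjusted p under 0.05), at 3586 to 6097 and 2280 to 4897, and *Foxj1* and *Ccno* of that list are not analysed here. The 9 radial glia markers, which define the labelled tissue, were present in every pup and lower in mean in PTU exposed pups (5 with an unadjusted p under 0.05), with sums from 74726 to 104143 and from 61911 to 82327. None of the 4 lists had a marker at 0. Correlations of the myosins with these marker scores, and fits with the scores as covariates, are given further on. In such bulk samples, fewer cells of a type and less RNA per cell cannot be told apart.

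Across the family, 7 of 9 transcripts were lower and 2 higher in mean in PTU exposed pups, where 49.3% of all rows were lower, and none passed the test after adjustment. All 9 had a mean of at least 10 normalized counts and so entered the test. In limma, the count of members with an adjusted p of at most 0.05 was 0 of 9, against 0% of the 14606 rows tested. The count over all rows was 179 without PTU exposed pup 2 (*Myo1e* among them), 7 without control pup 6, 40 with pups weighted by quality and 18 with a replicate block. An unadjusted p under 0.05 was found for 5 of the 9, all lower (*Myo1d*, *Myo1e*, *Myo7a*, *Myo10* and *Myo6*), where 16.3% of all rows had such a p, 8.2% with lower and 8.11% with higher values. Over all rows 1185 were higher and 1198 lower with such a p, a split that became 1584 and 81 with totals made equal across pups. Of the members, 0 of 9 had such a p with equal totals, and 1 of 9 with a radial glia marker score as a covariate. With that score, 623 of the 14606 rows had such a p, against 2383 without it. *Myo1d*, *Myo1e* and *Myo7a* are the myosins that the study had called lower from these same pups, with DESeq2 at an FDR of at most 0.05. That is another test than limma on log2 values, in which none of the 9 was called. The 5 of 9 with an unadjusted p under 0.05 are therefore not independent evidence. The median log2 fold change was -0.26 over the 9 members and 0.00 over all rows tested. The groups overlapped in every member, whereas 0.596% of all rows had groups that did not overlap, 0.26% with lower values after PTU exposure.

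**Figure D1:**
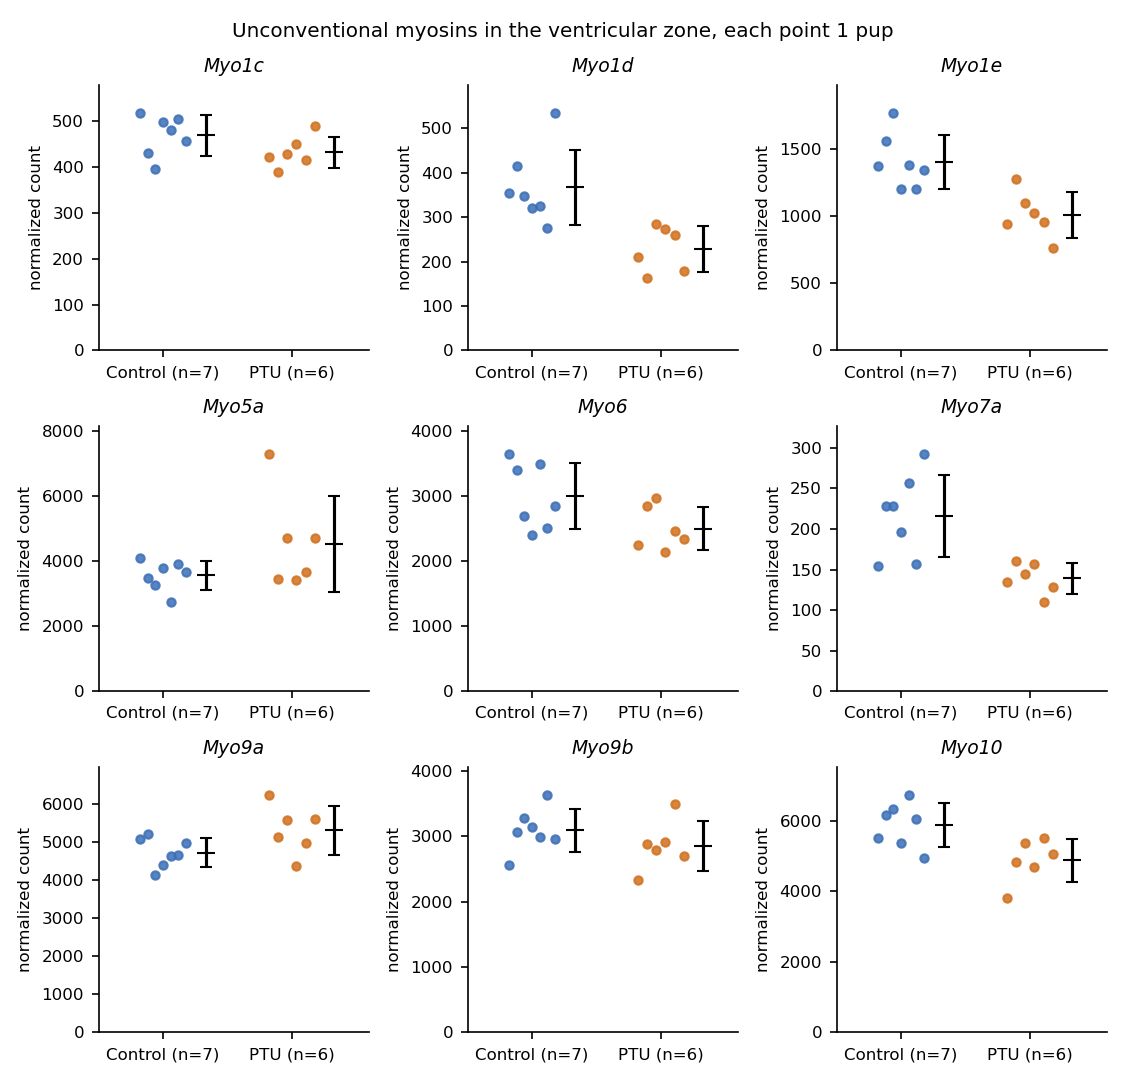
Normalized counts of the 9 unconventional myosins (y axis, starting at 0) in each control pup (blue, n = 7) and each PTU exposed pup (orange, n = 6), with the mean and SD of each group beside the points. Most PTU exposed pups lie below the controls for *Myo1d*, *Myo1e* and *Myo7a*, and 1 PTU exposed pup stands at 7286 normalized counts for *Myo5a*.

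Among class I myosins, which are monomeric motors that tie actin filaments to membranes, *Myo1d* and *Myo1e* were lower in mean after PTU exposure and *Myo1c* differed less. *Myo1d*, known for its part in left-right asymmetry in flies and fish, ranged from 276 to 534 normalized counts in control pups (median 348), against 163 to 285 with PTU (median 234). PTU exposed pups 2 and 6 were lowest, 5 of 6 PTU exposed pups were below the lowest control, and control pup 6 was the only control below the highest PTU exposed pup. The means were 367 ± 84.6 (SD, n = 7) and 228 ± 51.3 (SD, n = 6), a log2 fold change of -0.69 (95% interval -1.06 to -0.32; limma adjusted p = 0.132). By exact permutation (two-sided), its unadjusted p was 0.00175. All 6 exposed pups were below the control mean of *Myo1d*, which held for 5 of the 9 members and for 8.39% of all rows tested. No member had all 6 above it, as 6.63% of all rows did.

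*Myo1e*, a long-tailed class I motor that works in endocytosis and at cell junctions, had 885 to 1904 estimated reads per pup behind it, and *Myo1d* had 169 to 519. *Myo1e* ranged from 1201 to 1770 normalized counts in control pups (median 1375), against 762 to 1277 with PTU (median 991). PTU exposed pup 2 was the only exposed pup inside the control range, and control pups 4 and 6 were the only controls below it. The means of 1406 ± 202 and 1010 ± 172 (SD) gave a log2 fold change of -0.48 (95% interval -0.73 to -0.23; limma adjusted p = 0.122). Its unadjusted p by exact permutation (two-sided) was 0.00233. With PTU exposed pup 2 left out, the log2 fold change was -0.55 and the adjusted p in limma 0.0388, the only adjusted p of a member at or under 0.05 in any setting tried. With the other pups left out in turn, it reached up to 0.261 (without control pup 3, log2 fold change -0.43).

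*Myo1c*, which is known for delivery of membrane proteins to the cell surface, was the steadiest of the 3. It lay between 396 and 517 normalized counts in controls (median 480) and between 389 and 489 in PTU exposed pups (median 425), with broad overlap. Its log2 fold change was -0.12, with a 95% interval of -0.33 to 0.10 (adjusted p = 0.601 in limma), and with totals made equal across pups, a scaling that moved the median of all rows by 0.20, it was 0.09, or -0.12 relative to that median. Across pups and within groups, *Myo1c* and *Myo1e* ran opposite to each other (r = -0.84 over 13 pups, the strongest of the 36 pairs of members, given as a description).

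Ratios of members within a pup do not depend on the scaling of the pup, and 6 of them were compared with exact permutation tests (two-sided), with p-values adjusted over these 6. The log2 ratio of *Myo1d* to *Myo1c* averaged -0.37 ± 0.38 (SD, n = 7) in the controls, against -0.95 ± 0.35 (SD, n = 6) with PTU, below the control mean in 6 of 6 exposed pups. This difference of -0.57 had a p of 0.0198 in the exact permutation test (adjusted p = 0.0804). The log2 ratio of *Myo1e* to *Myo1c* averaged 1.58 ± 0.33 and 1.21 ± 0.35 (SD), a difference of -0.37 (exact permutation p = 0.0769, adjusted p = 0.145). *Myo1d* and *Myo1e* differed from each other by -0.21 (exact permutation p = 0.389), smaller than the spread between pups. It was -0.05 without PTU exposed pup 2 and -0.10 without control pup 7. With each pup left out in turn, the adjusted p by exact permutation ran from 0.026 (without control pup 6) to 0.169 (without control pup 2) for *Myo1d* to *Myo1c*. For *Myo1e* to *Myo1c* it ran from 0.0492 (without PTU exposed pup 2) to 0.232 (without PTU exposed pup 6).

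The MyTH4-FERM myosins were both lower in mean. *Myo7a*, the motor of hair cell stereocilia that is mutated in Usher syndrome, had the fewest reads of the family behind it, an estimated 108 to 284 per pup. It ranged from 154 to 292 normalized counts in control pups (median 228), against 110 to 160 with PTU (median 140). The exposed pups lay close together at the low end, 4 of 6 of them below the lowest control, and control pups 1 and 6 shared their range. The means were 216 ± 50.7 and 139 ± 18.9 (SD), a log2 fold change of -0.61 (95% interval -0.99 to -0.23; adjusted p = 0.148 in limma; exact permutation p = 0.00583, unadjusted).

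*Myo10*, which moves to the tips of filopodia and binds integrins, ranged from 4951 to 6737 normalized counts in control pups (median 6063), against 3804 to 5507 with PTU (median 4950). All 6 exposed pups were below the control mean, 3 of them below the lowest control, and PTU exposed pup 1 was lowest. The log2 fold change of *Myo10* was -0.27 (95% interval -0.47 to -0.07; limma adjusted p = 0.187; exact permutation p = 0.0122, unadjusted). Within pups, the log2 ratio of *Myo7a* to *Myo10* differed by -0.34 between groups (exact permutation p = 0.121, adjusted p = 0.145 over the 6 ratios), so that the larger fold of *Myo7a* was not separated from that of *Myo10*. Without control pup 7 this difference was -0.22 (exact permutation, adjusted p = 0.242).

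The cargo motors *Myo5a* and *Myo6*, which walk towards opposite ends of the actin filament, leaned in opposite directions. *Myo5a*, known for moving endoplasmic reticulum into dendritic spines and pigment granules in melanocytes, ranged from 2747 to 4081 normalized counts in control pups (median 3655), against 3414 to 7286 with PTU (median 4180). PTU exposed pup 1 stood far above all other pups, while 3 of 6 exposed pups lay inside the control range. The means were 3561 ± 448 and 4535 ± 1473 (SD), a log2 fold change of 0.30 (95% interval -0.01 to 0.62; adjusted p = 0.325 in limma). Without PTU exposed pup 1 it was 0.16, smaller than the spread between pups.

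*Myo6*, a motor of endocytosis and of vesicle sorting that moves towards the pointed end, ranged from 2406 to 3648 normalized counts in control pups (median 2855), against 2137 to 2968 with PTU (median 2405). All 6 exposed pups were below the control mean of 3002 ± 505 (SD), although 3 of them were inside the control range. The log2 fold change of *Myo6* was -0.26 (95% interval -0.49 to -0.02; adjusted p = 0.283 in limma), and its exact permutation p was 0.0647. Within pups, the log2 ratio of *Myo5a* to *Myo6* averaged 0.25 ± 0.35 (SD, n = 7) in the controls, against 0.81 ± 0.49 (SD, n = 6) with PTU, above the control mean in 6 of 6 exposed pups. The difference of 0.56, a 1.47-fold higher ratio, had a p of 0.0268 in the exact permutation test (adjusted p = 0.0804 over the 6 ratios). With each pup left out in turn, its adjusted p by exact permutation ran from 0.0492 (without PTU exposed pup 2) to 0.169 (without control pup 2 or 5). Without PTU exposed pup 1 the difference was 0.38, with an unadjusted exact permutation p of 0.0682.

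The class IX myosins, motors whose tails switch off small GTPases, had no member with an unadjusted p under 0.05. *Myo9a* ranged from 4123 to 5200 normalized counts in control pups (median 4654), against 4356 to 6232 with PTU (median 5346), with 3 exposed pups above the highest control. *Myo9b* ranged from 2563 to 3631 (median 3063) and from 2333 to 3493 (median 2838), and the groups overlapped over most of their range. The log2 fold changes were 0.16 for *Myo9a* (95% interval -0.02 to 0.35) and -0.12 for *Myo9b* (95% interval -0.32 to 0.08), with adjusted p-values of 0.351 and 0.551 in limma. Leaving out 1 pup moved *Myo9b* to -0.06 (without PTU exposed pup 1), -0.08 (without control pup 6) or -0.18 (without PTU exposed pup 5). The log2 ratio of *Myo9a* to *Myo9b* differed by 0.28 between groups (exact permutation p = 0.101, adjusted p = 0.145), and by 0.18 without PTU exposed pup 1 (exact permutation, adjusted p = 0.265).

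**Figure D2:**
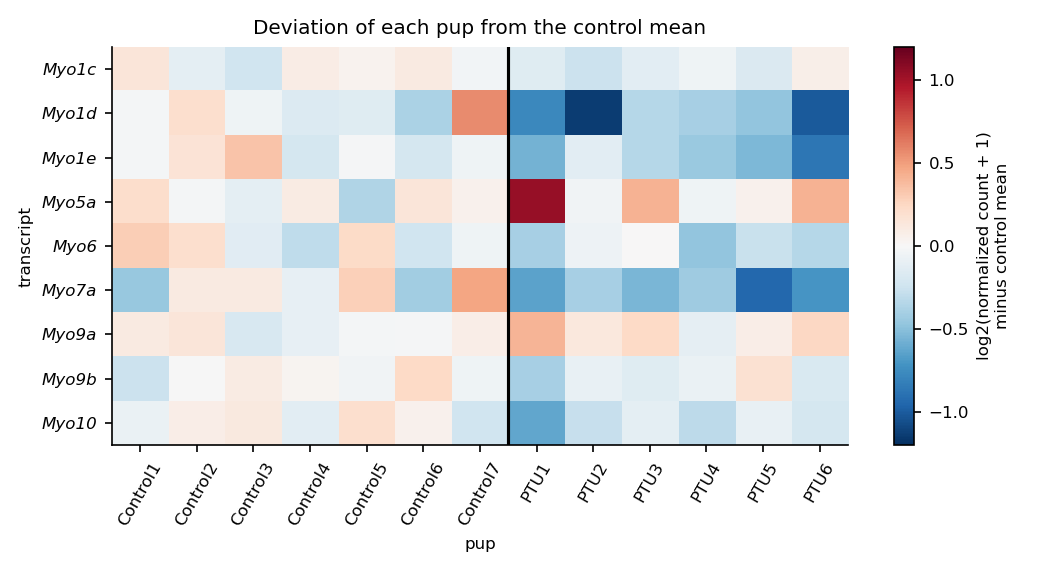
Difference of each pup (columns) from the control mean on the log2(normalized count + 1) scale for each myosin (rows), blue for lower and red for higher, with a line between control and PTU exposed pups. The rows of *Myo1d*, *Myo1e*, *Myo7a* and *Myo10* are below the control mean in every PTU exposed pup, and PTU exposed pup 1 is highest for *Myo5a* and lowest for *Myo10*.

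The pups did not move alike over the family. PTU exposed pup 1 was 1.04 above the control mean of *Myo5a* on the log2 scale and 0.40 above that of *Myo9a*, and it was the lowest of all pups for *Myo10* and *Myo9b*. PTU exposed pup 2 had the lowest *Myo1d* of all pups and the highest *Myo1e* of the exposed pups. PTU exposed pup 6 had the lowest *Myo1e*. Among controls, pup 7 was highest for both *Myo1d* and *Myo7a*.

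Other motors of the superfamily gave a background for these values. Of 16 other unconventional myosins listed, 10 had a row. *Myo5c*, an epithelial relative of *Myo5a*, was the only one with an unadjusted p under 0.05, and spanned 297 to 887 normalized counts among controls, against 156 to 654 with PTU, a log2 fold change of -0.77 with a limma adjusted p of 0.242. It was lower in mean where *Myo5a* was higher. *Myo3b* and *Myo1f* had the next smallest p-values in limma, with log2 fold changes of -0.92 (adjusted p = 0.336) and -0.40 (adjusted p = 0.361). The median log2 fold change of the 10 was -0.15. Of the nonmuscle myosin II heavy chains, which drive contraction of the apical actomyosin belt, *Myh9* and *Myh10* differed by -0.08 and 0.09 on the log2 scale (limma adjusted p = 0.625 and 0.668). *Myh14* averaged 2348 ± 263 (SD, n = 7) and 1940 ± 211 (SD, n = 6) normalized counts, with all 6 exposed pups below the control mean (log2 fold change -0.28, adjusted p = 0.175 in limma).

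**Figure D3:**
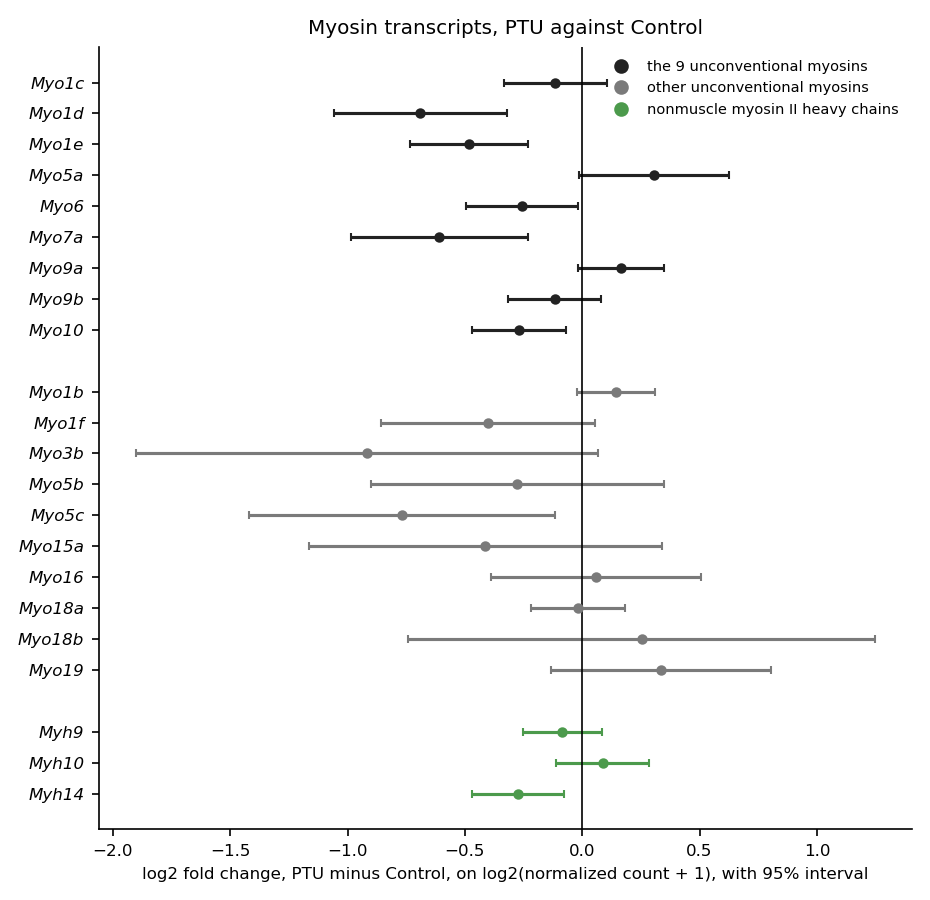
Log2 fold change of PTU exposed against control pups with its 95% interval (x axis) for the 9 unconventional myosins (black), the 10 other unconventional myosins found (grey) and the 3 nonmuscle myosin II heavy chains (green). The intervals of *Myo1d*, *Myo1e*, *Myo6*, *Myo7a*, *Myo10*, *Myo5c* and *Myh14* exclude 0 before adjustment.

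Over 9 lists of related genes (other myosins, light chains and known partners of each class), 70 of 92 genes had a row. None had an adjusted p of at most 0.05 in limma, and 7 had an unadjusted p under 0.05 with higher and 6 with lower values, together 18.6% of the 70 against 16.3% of all rows.

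Of the light chains and calmodulins that occupy the necks of these motors, 8 of 12 were found. *Calm2* averaged 6493 ± 496 and 10362 ± 3739 normalized counts (SD; log2 fold change 0.61, adjusted p = 0.133 in limma), above the control mean in 6 of 6 exposed pups. *Calml4*, a calmodulin-like light chain of brush border motors, averaged 321 ± 88.9 and 224 ± 90.2 (log2 fold change -0.55, adjusted p = 0.288 in limma). *Calm2* has close paralogs, and its value is uncertain where the counting model divided reads among them.

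Among 9 class VI cargo adaptors found, *Dlg1*, a scaffold of cell junctions that binds *Myo6*, was the only gene of the 70 found in the 9 lists whose groups did not overlap, where 0.596% of all rows had such groups. It was singled out for this after its values were seen. It ranged from 1861 to 2384 normalized counts in control pups (median 1988), against 1444 to 1705 with PTU (median 1627), a log2 fold change of -0.37 ± 0.08 (standard error; limma adjusted p = 0.122). The kinase gene *Lmtk2* had a log2 fold change of 0.31 (adjusted p = 0.239) and *Otof*, which encodes the otoferlin of hair cell synapses, one of 1.06 (adjusted p = 0.333 in limma). *Otof* is a low row, with medians of 32.9 and 48.3 normalized counts and exposed pups spread from 21.3 to 333. The class VI list as a whole had 2 genes higher and 7 lower in mean.

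Among 7 partners of class VII found, *Adgrv1*, the large adhesion receptor of the Usher complex, spanned 9934 to 13384 normalized counts among controls, against 6951 to 11734 with PTU. All 6 exposed pups were below the control mean (log2 fold change -0.39, adjusted p = 0.156 in limma). *Cdh23* and *Whrn* had differences of -0.56 and -0.18 on the log2 scale (limma adjusted p = 0.384 and 0.399), and 6 of the 7 were lower in mean, with a median of -0.34.

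Of 12 class X partners found, *Evl*, an Ena/VASP protein of filopodia, averaged 2770 ± 360 and 3430 ± 378 normalized counts (SD; log2 fold change 0.31, adjusted p = 0.161 in limma). The integrin gene *Itgb5* averaged 2319 ± 345 and 1776 ± 357 (log2 fold change -0.40, adjusted p = 0.175), and *Fscn1*, the fascin that bundles filopodial actin, had a log2 fold change of 0.13 (adjusted p = 0.396). The list was evenly divided, with 6 genes higher and 6 lower.

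For class V, 10 adaptors were found and 7 were higher in mean, with log2 fold changes of 0.56 for the synaptic vesicle GTPase *Rab3a*, 0.18 for *Rab11a* and 0.24 for *Rab8a* (adjusted p = 0.189, 0.296 and 0.367 in limma). For class I, 7 membrane and endocytic partners gave 0.92 for the dynamin gene *Dnm1*, 0.18 for *Exoc7* and -0.13 for *Dnm2* (adjusted p = 0.22, 0.301 and 0.397 in limma). The exposed pups were spread from 233 to 1527 normalized counts for *Dnm1*, with a median of 395 against 269 in controls. None of the 4 partners found for class IX had an unadjusted p under 0.05, and *Rock2*, *Rhoc* and *Rhoa* had differences of 0.16, -0.25 and 0.07 on the log2 scale (limma adjusted p = 0.368, 0.460 and 0.677).

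*Myo5a* and *Myo1e* followed the markers of a cell type from pup to pup. Relations were computed between the 9 members and 4 marker scores (36 in all, values centred within groups, 13 pups), where a score is the mean over a list of row-centred log2 values. *Myo5a* followed the neuron score with Pearson's r = 0.95 (permutation p = 0.0001, adjusted p = 0.0036) and Spearman's rho = 0.86 (permutation p = 0.00055, adjusted p = 0.0198). Without PTU exposed pups 1 and 4, the farthest from the median score, r was 0.88. It was 0.81 within controls and 0.995 within PTU exposed pups. *Myo1e* followed the multiciliated ependymal score (r = 0.81, permutation p = 0.0023, adjusted p = 0.0414; rho = 0.68, permutation p = 0.0203, adjusted p = 0.146), with r = 0.73 after leaving out control pup 2 and PTU exposed pup 2. It followed the radial glia score with a rho of 0.69 (permutation p = 0.0162, adjusted p = 0.146) and an r of 0.68 (permutation p = 0.018, adjusted p = 0.108). *Myo5a* with the neuron score and *Myo1e* with the multiciliated ependymal score were the only relations of the 36 with an adjusted p of at most 0.05 by Pearson's r. Among the 4 scores tested, *Myo1d* had its highest r with the choroid plexus score (r = 0.63, permutation p = 0.0303; rho = 0.54, permutation p = 0.0789; r = 0.44 without the farthest pair of pups), which did not hold after adjustment. Scores of endothelial, microglia, oligodendrocyte lineage and fibroblast markers were not among the 4 tested, and the p-values are not adjusted over them. Given as a description, *Myo1d* had an r of 0.64 with the fibroblast markers. *Myo9b* had one of -0.69 and *Myo1c* one of 0.58 with the endothelial markers, and *Myo7a* one of -0.67 with the microglia markers. None of the negative relations among the 36 tested held after adjustment. The 3 with the smallest p were those of *Myo1c* with the multiciliated ependymal score (r = -0.74, permutation p = 0.00676, adjusted p = 0.0811), of *Myo5a* with the radial glia score (r = -0.74, permutation p = 0.0105, adjusted p = 0.0949) and of *Myo10* with the neuron score (r = -0.72, permutation p = 0.0164, adjusted p = 0.108). Their rho was -0.68, -0.70 and -0.56 (permutation p = 0.0178, 0.0153 and 0.0566), and r without the farthest pair of pups was -0.64, -0.67 and -0.62.

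**Figure D4:**
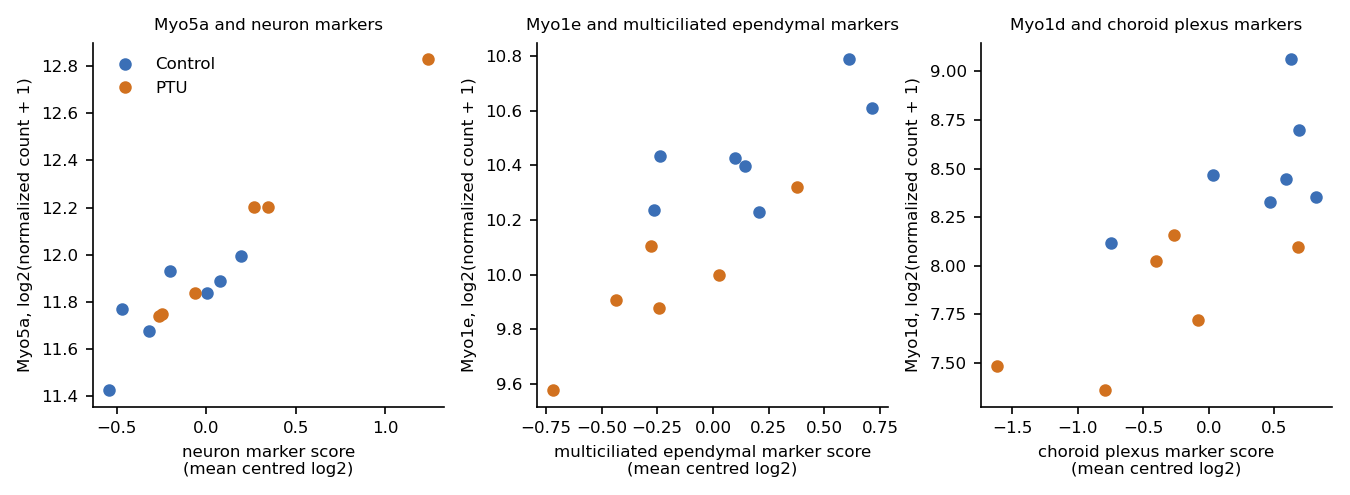
Log2(normalized count + 1) of *Myo5a*, *Myo1e* and *Myo1d* (y axes) against the neuron, multiciliated ependymal and choroid plexus marker scores (x axes, mean centred log2), each point 1 pup, blue for control and orange for PTU exposed. *Myo5a* is higher in pups with a higher neuron score in both groups (r = 0.95 on values centred within groups), and the PTU exposed pup at the upper right is pup 1.

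With a marker score added to the model as a covariate, the fold changes moved by different amounts. The log2 fold change of *Myo5a* was 0.03 with the neuron score (95% interval -0.14 to 0.20), 9.98% of its value without it. *Myo1d* kept 98.7% of its log2 fold change with the neuron score and 65.6% with the choroid plexus score (-0.45, 95% interval -0.84 to -0.07). *Myo7a* kept 69.1% with the choroid plexus score (-0.42) and 87.8% with the neuron score. *Myo1e* kept 60.8% with the multiciliated ependymal score (-0.29, 95% interval -0.51 to -0.08) and 76.7% with the choroid plexus score. *Myo10* was -0.30 with the choroid plexus score and -0.16 with the neuron score. With the neuron score *Myo9a* was at 0.08 and *Myo9b* at -0.02, and with the multiciliated ependymal score *Myo1c* was at -0.21.

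The radial glia score was added after the data were seen. It left 34.2% of the log2 fold change of *Myo1e*, 30.3% for *Myo10*, 86.7% for *Myo1d* and 79.3% for *Myo7a*. The intervals with this score were -0.48 to 0.15 for *Myo1e* and -0.36 to 0.20 for *Myo10*. For *Myo1d* and *Myo7a* they were -1.17 to -0.03 and -1.06 to 0.10. These intervals overlap, and differences between the shares were not tested. The score itself nearly separated the groups, at -0.03 to 0.35 in controls and -0.45 to 0.04 in PTU exposed pups. Fits with it therefore cannot well separate the exposure from the score. With the radial glia score *Myo6* was at 0.02, *Myo5a* at -0.18, *Myo9a* at 0.04, *Myo9b* at -0.02 and *Myo1c* at -0.21. Adjusted p-values in limma with any of the 4 scores were between 0.266 and 0.999 for the 9 members.

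**Figure D5:**
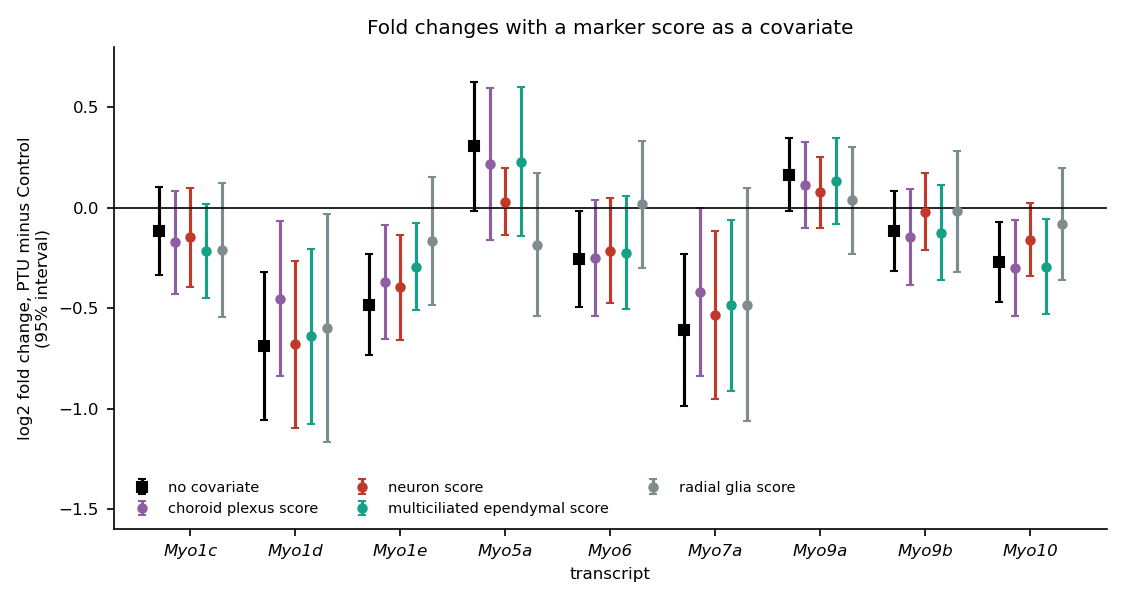
Log2 fold change (y axis, with 95% interval) of each myosin without a covariate (black squares) and with a choroid plexus, neuron, multiciliated ependymal or radial glia marker score as a covariate (coloured points). The estimates of *Myo1c*, *Myo1d*, *Myo1e*, *Myo7a*, *Myo9b* and *Myo10* are below 0 with each score, and *Myo5a* moves from 0.30 to 0.03 with the neuron score.

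Transcripts most like each member were sought among named rows with a mean of at least 100, by Pearson's r over the 13 pups on log2 values centred within groups. Because they were chosen as the highest, no test is given. *Dpysl3*, *Ank2* and *Rtn4*, which encode neuronal growth and membrane skeleton proteins, were nearest to *Myo5a* (r = 0.98, 0.98 and 0.97, and 0.97, 0.95 and 0.92 without PTU exposed pup 1 and control pup 5). Nearest to *Myo1e* were *Pigk*, *Tctn1* and *Wdr19*, with r = 0.91, 0.90 and 0.90. *Tctn1* and *Wdr19* encode proteins of the ciliary transition zone and of intraflagellar transport. *Myo1d* was most like *Elob* (r = 0.90), *St3gal6* (0.89) and *Glod4* (0.85), and *Myo7a* like *Slc25a10* (r = 0.88), *Cyp20a1* (0.85) and *Zfp870* (0.84). The nearest rows were *Mfap3* for *Myo1c* (r = 0.85), *Ttc3* for *Myo9a* (0.94), *Pold1* for *Myo9b* (0.95) and *Rgs12* for *Myo10* (0.90). Without the pair of pups farthest from the group means of the member, r with the nearest row was lower for several. It was 0.82 for *Myo1c*, 0.88 for *Myo1d*, 0.90 for *Myo1e* and 0.79 for *Myo7a*. For *Myo9a*, *Myo9b* and *Myo10* it was 0.90, 0.93 and 0.75.

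Promoter sequences from RefSeq (GRCr8) matched 8 of the 9 members by symbol, with 9 windows of 250 bases upstream of a start, and none for *Myo1d*. The windows of *Myo1e* (chr8:79768578-79768827, plus strand) and *Myo7a* (chr1:161818578-161818827, minus strand) are shown because these transcripts had the lowest fold changes among the members matched. They are written 5′ to 3′ on the strand of the gene, with CG dinucleotides in capitals. The start is that of the reference, on another build than the mRatBN7.2 of the deposited rows, and need not be the start used in the VZ.
Myo1e: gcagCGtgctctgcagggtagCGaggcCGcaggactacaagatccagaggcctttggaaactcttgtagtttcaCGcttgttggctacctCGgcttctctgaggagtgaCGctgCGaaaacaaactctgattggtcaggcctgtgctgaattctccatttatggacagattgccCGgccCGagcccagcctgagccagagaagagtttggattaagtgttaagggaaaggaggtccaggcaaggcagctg
Myo7a: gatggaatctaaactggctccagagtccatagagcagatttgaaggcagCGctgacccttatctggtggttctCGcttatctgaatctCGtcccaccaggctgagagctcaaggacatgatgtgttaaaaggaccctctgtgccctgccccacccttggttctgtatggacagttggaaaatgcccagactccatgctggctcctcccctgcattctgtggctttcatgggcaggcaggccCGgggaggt
They held 9 and 4 CG dinucleotides. The windows of *Myo10*, *Myo6*, *Myo9b*, *Myo9a* and *Myo5a* held 18, 21, 25, 32 and 38, and those of *Myo1c*, which has a pair of starts, 1 and 24. Over all 33469 windows the median was 5. The half-site bound by thyroid hormone receptors, AGGTCA on either strand, was found in 14.1% of all windows and in 2 of the 9, 1 each of *Myo1c* and *Myo9b*, and in neither window shown. The direct repeat of this half-site with a spacer of 4 bases was in 0 of the 9 and in 0.00299% of all windows. A match or its absence in these letters says nothing about binding.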

How the data were processed

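RNA of the laser captured posterior VZ was sequenced from 7 control and 6 PTU exposed pups, grouped by the sample titles. The authors used Trimmomatic for trimming and STAR 2.7.8a for alignment (build mRatBN7.2). Transcript counts came from the expectation maximization quantifier of Partek, and each pup was then scaled by its median ratio size factor, so that the deposited values are a signal that is never negative (normalized counts), not raw counts. Between 88.2 and 89.7% of values from 20 to 150 were whole multiples (within 0.02) of 1 step per pup, under the 95% set for recovering reads, so no count model was used. The methods name a RefSeq annotation and the rows carry Ensembl identifiers. The deposited columns of the authors' own comparison (p-values, FDR, ratios, fold changes, group means) were not used, and no other column was left out.

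Rows with a mean of at least 10 (14606 of 14716) were compared as log2(normalized count + 1), a scale on which the changes of low rows are understated, with limma 3.58.1 in R 4.3.3 (variance trend, Benjamini-Hochberg adjustment over all rows, threshold 0.05), together with exact permutation tests over pups in Python 3.11.15. Relations with marker scores were tested by permuting pups within groups. The limma fit was also run on simulated data, and the outcome is not reported here. Named genes are every member, the nonmuscle myosin II heavy chains, up to 3 genes a list with the smallest p, and the 3 rows most like each member; of the latter, only the nearest row is named for 4 members and none for *Myo6*. Some items the rule would name are not reported here. *Dlg1* was singled out for its groups after its values were seen. The members and lists were chosen with earlier results of these data known. Alternatives were pseudocounts, filters, scalings, pup weights, no variance trend, summed rows, marker scores as covariates, a replicate block and each pup left out; the radial glia score and the omission of PTU exposed pups 1 and 6 were added after the data were seen. Replicate numbers belong to pups of different litters.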

Additional observations from a re-analysis of the deposited data

Results flagged for a closer look

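Of 30 groups of pups examined (9 members and 6 ratios in each treatment group), 2 had a pup far from the others of its group, where chance gives about 1 in 20. *Myo5a* was at 7286 normalized counts in PTU exposed pup 1, and the other 5 exposed pups were between 3414 and 4707. The neuron marker score was also highest in that pup. The log2 ratio of *Myo1d* to *Myo1e* was -2.96 in PTU exposed pup 2, and between -2.16 and -1.88 in the other exposed pups; this pup had the lowest *Myo1d* and the highest *Myo1e* of its group.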

How the results depend on the processing

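The 9 log2 fold changes kept their direction under each alternative except 4 values, and no member had an adjusted p of at most 0.05 except *Myo1e* without PTU exposed pup 2. With the same total for every pup, which moved the median of all rows by 0.20, *Myo1c* was at 0.086 and *Myo9b* at 0.084 (both -0.12 relative to that median), and no member had an unadjusted p under 0.05 (all rows: 1584 higher and 81 lower, against 1185 and 1198); with the same total without the 3 highest rows, 5 members had one, as reported. In the latter scaling, 2318 of all rows had such a p. With the radial glia score, *Myo5a* was at -0.18 and *Myo6* at 0.017, and *Myo1d* was the only member with an unadjusted p under 0.05 (all rows: 299 higher and 324 lower). The count of rows called by limma, 0 as reported (2383 at an unadjusted p under 0.05), was 0 with the rows of each gene summed, 40 with pups weighted by quality, 4 with the choroid plexus score, and between 0 and 179 with each pup left out (7 without control pup 6 and 179 without PTU exposed pup 2). With each pup left out, *Myo1e* ranged from -0.55 to -0.40, the log2 ratio of *Myo1d* to *Myo1c* from -0.66 to -0.47, that of *Myo1e* to *Myo1c* from -0.47 to -0.25, and that of *Myo5a* to *Myo6* from 0.38 to 0.67; from 4 to 5 members were lower and from 0 to 2 higher with an unadjusted p under 0.05 (*Myo5a* higher without control pup 1 or PTU exposed pup 2, 4 or 5, and *Myo9a* without PTU exposed pup 4). Over all rows, from 1791 (without PTU exposed pup 6) to 2997 (without PTU exposed pup 2) had such a p. *Myo5a* was also higher at that p with the replicate block (2955 of all rows), and *Myo9a* with pups weighted by quality (2848 of all rows). Without PTU exposed pups 1 and 6 together, 4 members were lower and 0 higher with such a p (all rows: 694 higher and 779 lower).

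With the replicate number as a block, 18 rows were called, none of them a member, and *Myo1e* was at -0.49 (adjusted p = 0.0549 in limma). The labels do not say what the numbers stand for. Correlations of same-numbered pups ran from -0.07 to 0.20, 1 of 6 exposed pups correlated best with its own number, and control pup 7 has no partner. Whether same-numbered pups shared a batch cannot be settled from these values. Depth limits *Myo7a* and *Myo1d* most, with medians of 162 and 281 estimated reads per pup.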
